A study of Mus musculus with 4 samples.

Results

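Transcript levels of 10 mouse genes that make, sense or relay interferon-gamma were followed in 4 RNA-seq libraries of sorted Th1-cultured CD4 T cells. The genes were taken by symbol from the deposited tables of 23284 gene symbols. All 10 were found, each with a single entry, and all 10 had the mean of at least 1 FPKM that was asked of a gene before testing. They were the cytokine gene Ifng, its receptor genes Ifngr1 and Ifngr2, the IL-12 receptor genes Il12rb1 and Il12rb2 with the downstream kinase Tyk2 and transcription factor Stat4, the IL-18 receptor genes Il18r1 and Il18rap, and Tbx21, which encodes the Th1 lineage factor T-bet.

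CD4 T cells from the spleen of BALB/c mice, an inbred strain with no genetic alteration named here, had been cultured under Th1 conditions with 15 ng/ml IL-2 and 10 ng/ml IL-12. The length of culture is 4 days in one label and 5 days in another. The cells were then sorted into CCR7hiCD137lo and CCR7loCD137hi populations, with 2 libraries of each, numbered 1 and 2. CCR7 is a chemokine receptor that leads T cells to lymph nodes, and CD137, the product of Tnfrsf9, costimulates T cells that have met antigen. Both populations had therefore met the same IL-12, and they differ by the sort. The study concerned acetyl-CoA carboxylase 1 and memory formation by CD4 T cells, and the sorted populations were compared to describe how they differ. Nothing in the labels says whether the libraries came from separate mice or cultures, so the p-values speak only to the spread among these 4 samples, and that spread may be technical.

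In T cells, IL-12 binds a receptor made of the chains encoded by Il12rb1 and Il12rb2, and the kinases TYK2 and JAK2 on those chains activate STAT4. IL-18 binds the chain encoded by Il18r1, which then recruits the accessory chain encoded by Il18rap and signals through MYD88 and IRAK kinases. STAT4, T-bet and the IL-18 pathway act together on Ifng. The cytokine that Ifng encodes binds IFNGR1, which pairs with IFNGR2 and signals through the kinases JAK1 and JAK2, and cultured Th1 cells are known for a low level of the IFNGR2 chain.

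Expression is given as FPKM, fragment counts scaled to transcript length and library size, so that levels of different genes can be set side by side. Values for replicates 1 and 2 are given in that order. Differences are on the log2(FPKM + 1) scale, CCR7loCD137hi minus CCR7hiCD137lo, which understates the change of low genes. They were tested with limma over 10496 genes and called at an adjusted p under 0.05. Depth is not stated, but the spacing of low values put CCR7hiCD137lo replicate 2 at 0.631, CCR7loCD137hi replicate 1 at 0.564 and CCR7loCD137hi replicate 2 at 0.306 of the depth of CCR7hiCD137lo replicate 1. Ccr7 lay at 93.4 and 118 FPKM in CCR7hiCD137lo, against 39.6 and 38.2 FPKM in CCR7loCD137hi, and Tnfrsf9 at 0.961 and 6.25 against 158 and 184 FPKM, as the labels of the sort say. The T cell genes Cd3e and Cd4 were present throughout, at 180 to 221 FPKM and 95.6 to 182 FPKM.

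The start-site windows of 3 of these genes are shown here because Ifng and Ifngr1 had the widest differences described below, and because Il12rb2 had a window with 2 kinds of motif. RefSeq (build GRCm38.p6) gave 12 windows for 9 of the 10 genes, each of 250 bases before and 50 after an annotated start site; Il12rb1 had none in the table used. Each window was searched on both strands for the STAT motif GAS, TTCNNNGAA, for the T-box core TCACAC, and for the AP-1 motif TGANTCA. Capitals mark matches, the windows run 5′ to 3′ on the strand of the gene, and no letter belongs to more than 1 motif in these windows. Ifng is at chr10:118440796-118441095 (plus strand), Ifngr1 at chr10:19591699-19591998 (plus strand) and Il12rb2 at chr6:67376139-67376438 (minus strand).
Ifng: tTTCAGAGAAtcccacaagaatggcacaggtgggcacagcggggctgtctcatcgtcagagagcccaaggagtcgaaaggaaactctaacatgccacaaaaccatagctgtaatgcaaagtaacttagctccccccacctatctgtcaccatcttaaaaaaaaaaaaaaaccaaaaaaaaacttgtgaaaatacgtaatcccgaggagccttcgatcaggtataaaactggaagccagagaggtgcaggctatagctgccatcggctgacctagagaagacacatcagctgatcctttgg
Ifngr1: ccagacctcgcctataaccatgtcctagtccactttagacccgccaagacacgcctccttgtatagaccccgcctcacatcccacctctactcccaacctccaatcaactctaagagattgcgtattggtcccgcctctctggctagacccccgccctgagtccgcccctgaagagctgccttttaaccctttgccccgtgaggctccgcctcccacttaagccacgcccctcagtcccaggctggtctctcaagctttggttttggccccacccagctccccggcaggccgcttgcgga
Il12rb2: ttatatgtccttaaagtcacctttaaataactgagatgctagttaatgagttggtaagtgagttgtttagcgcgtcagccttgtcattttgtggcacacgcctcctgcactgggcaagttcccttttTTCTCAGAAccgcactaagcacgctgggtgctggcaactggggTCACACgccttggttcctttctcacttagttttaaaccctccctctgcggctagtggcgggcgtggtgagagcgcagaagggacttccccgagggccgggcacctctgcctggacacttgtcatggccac
The Ifng window held 1 GAS match, starting 249 bases before the start site. The Il12rb2 window held 1 GAS match, starting 123 bases before it, and 1 T-box core, starting 80 bases before it. The Ifngr1 window held none of the 3 motifs. Over the 12 windows GAS was found in 3, the T-box core in 1 and the AP-1 motif in 0, while 8.3%, 14.5% and 7.81% of all 32851 windows in the table hold them. The matches describe the sequence only.

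Of the 10 genes, Ifng and Ifngr1 had the largest fitted log2 differences between the populations, both toward CCR7loCD137hi, and the IL-12 receptor gene Il12rb1 was also higher in both CCR7loCD137hi libraries. The genes for the factors that carry the IL-12 signal to Ifng, Stat4 and Tbx21, had overlapping groups, and the IL-18 receptor gene Il18r1 was lower in both CCR7loCD137hi libraries. None of the 10 passed limma's test over all genes, where 6 genes, 0.0572% of those tested, passed. The lowest adjusted p of the 10 was 0.243, for Ifngr1. At an unadjusted p under 0.05 there were 3, Ifng, Ifngr1 and Il12rb1, all higher, against 4.64% of all genes in that direction, and 0 lower, against 3.49% (8.13% in either direction). In 5 of the 10 both CCR7loCD137hi libraries exceeded both CCR7hiCD137lo libraries, against 16.6% of all genes, and in 1 they were below, against 21.5%. The median difference of the 10 was 0.407, beside −0.012 for all genes tested, and it was 0.14 without CCR7hiCD137lo replicate 1. Ifngr2 entered through its level in CCR7loCD137hi, since its mean in CCR7hiCD137lo was 0.729 FPKM, so these counts describe the 10 genes and support nothing further.

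**Figure D1:**
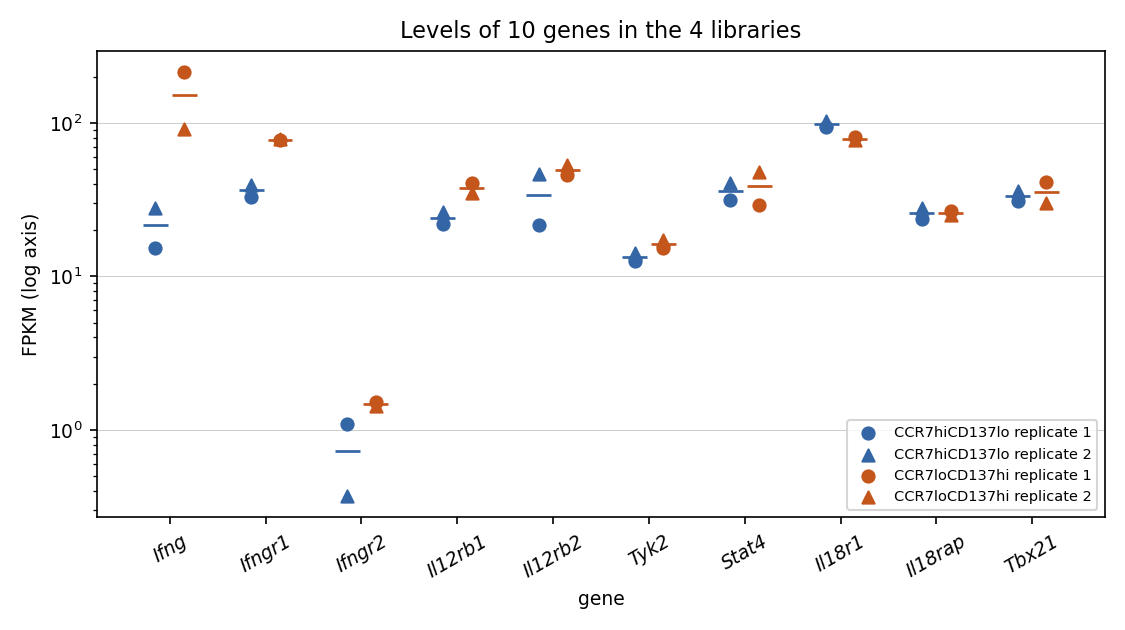
FPKM of each gene (log axis) in the 4 libraries, with circles for replicate 1, triangles for replicate 2 and a bar at the mean of each population. Ifng lies at 15.3 and 27.8 FPKM in CCR7hiCD137lo, against 215 and 90.8 FPKM in CCR7loCD137hi, while Tbx21, Stat4 and Il18rap overlap between the populations and Ifngr2 lies far below the other genes.

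The order of levels differed at its top. Il18r1 was the most abundant of the 10 in both CCR7hiCD137lo libraries, whereas Ifng was the most abundant in both CCR7loCD137hi libraries, having had ranks 8 and 6 in CCR7hiCD137lo replicates 1 and 2. Tyk2 was the lowest but one and Ifngr2 the lowest in every library. In CCR7hiCD137lo, Il18r1 (98.6 ± 6.43 FPKM, SD, n = 2) stood clear of a first group of Ifngr1 (36.3 ± 4.55), Stat4 (36.2 ± 6.61), Il12rb2 (33.8 ± 17.4) and Tbx21 (33.5 ± 3.59), whose neighbours were closer than their SD. A second such group held Il18rap (25.7 ± 2.82), Il12rb1 (24.1 ± 2.95), Ifng (21.6 ± 8.87) and Tyk2 (13.4 ± 1.07). In CCR7loCD137hi, Ifng (153 ± 87.6 FPKM) exceeded Il18r1 (79.1 ± 2.07) in both libraries, though the means lay within the SD of Ifng, and Il18r1 and Ifngr1 (77.6 ± 0.855) did not differ beyond their SD. Il12rb2 (49.4 ± 5.21), Stat4 (38.5 ± 13.02), Il12rb1 (37.7 ± 4.24) and Tbx21 (35.7 ± 7.66) again had neighbours within their SD, and Il18rap (25.8 ± 1.19) and Tyk2 (16.3 ± 1.39) followed.

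Ifng (mm10 chromosome 10, 118441047 to 118445892, plus strand, protein-coding) encodes the cytokine by which Th1 cells activate macrophages. It stood at 15.3 and 27.8 FPKM in CCR7hiCD137lo, against 215 and 90.8 FPKM in CCR7loCD137hi. The lower CCR7loCD137hi library was thus well above the higher CCR7hiCD137lo library, and the CCR7loCD137hi libraries were also far apart from each other. The ratio of means was 7.09, with 14.1 between the libraries numbered 1 and 3.26 between those numbered 2, and the log2 difference was 2.70 (SE 0.505, limma adjusted p = 0.368). It was 2.08 without CCR7loCD137hi replicate 1 and 3.32 without CCR7loCD137hi replicate 2. Ifng ranged from the level that 58.2% of tested genes lay below, in CCR7hiCD137lo replicate 1, to the level that 97.0% lay below, in CCR7loCD137hi replicate 1. Exons of Ifng overlap those of Gm49751 on the same strand by 336 nt, where use of strand would not separate their reads. In bulk samples fewer cells that express a gene and less RNA per cell cannot be told apart.

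The summed markers of regulatory T cells, of CD8 T and NK cells and of B cells were higher in both CCR7loCD137hi libraries, as Ifng was, and also highest in CCR7loCD137hi replicate 1. Of the 4 regulatory T cell markers examined, all 4 were higher in both CCR7loCD137hi libraries, against 16.6% of all genes. However, Foxp3, Il10 and Ikzf2 had means in CCR7hiCD137lo of 0.517, 0.468 and 0.302 FPKM. They entered the test through their level in CCR7loCD137hi, which fixed the direction of their means. The 4 markers had a summed level of 39.2 and 24.4 FPKM in CCR7hiCD137lo, against 222 and 97.2 FPKM in CCR7loCD137hi. Ctla4 made up most of this sum in every library, at 37.5 and 23.5 against 139 and 70.0 FPKM. Foxp3, the factor that defines the regulatory T cell lineage, was at 0.853 and 0.181 against 47.9 and 10.97 FPKM. The 7 CD8 T and NK cell markers summed to 7.58 and 16.0 against 39.9 and 26.2 FPKM. Of these, 2 of the 3 that were tested, Klrk1 and Klrd1, were higher in both CCR7loCD137hi libraries, against 16.6% of all genes. Klrk1 was the largest part of the sum in every library, at 4.29 and 9.38 against 16.5 and 15.5 FPKM. The groups overlapped for the other tested marker, Cd8b1, at 2.63 and 4.56 against 8.48 and 3.78 FPKM. Cd8a and Ncr1 had a mean under 1 FPKM and were not tested. Cd8a was at 0 and 0.0265 against 3.68 and 0.218 FPKM, and Ncr1, the NK cell receptor gene, was listed at 0 in CCR7hiCD137lo, against 1.91 and 0.251 FPKM in CCR7loCD137hi. The 4 B cell markers summed to 0.0917 and 0.145 against 3.53 and 0.5001 FPKM, with Ms4a1 and Cd22 listed at 0 in both CCR7hiCD137lo libraries. In CCR7loCD137hi replicate 2, the shallowest library, Ms4a1 was also at 0 and Cd22 was at 0.0419 FPKM. Between the libraries numbered 2, Cd79a was at 0.0683 against 0.141 FPKM and Cd79b at 0.0772 against 0.318 FPKM. Whether these low levels differ beyond counting error was not tested. The 6 measured myeloid and dendritic cell markers summed to under 1 FPKM in every library, with Csf1r at 0 in all. Their sums were 0.0648 and 0.0594 against 0.284 and 0.571 FPKM, highest in CCR7loCD137hi replicate 2, and this difference was not tested. NK and CD8 T cells also express Ifng. The part of these cells in the difference in Ifng, and in those of the other genes below, was not tested.

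The receptor for interferon-gamma was represented very unequally by its chains. Ifngr1 (chromosome 10, 19591958 to 19610225, plus strand), which encodes the ligand-binding chain, stood at 33.1 and 39.5 FPKM in CCR7hiCD137lo, against 77.0 and 78.2 FPKM in CCR7loCD137hi. Its libraries lay close together within each population and apart between them. The ratio of means was 2.14, with 2.33 and 1.98 between libraries numbered 1 and 2, and the log2 difference of 1.08 (SE 0.139, limma adjusted p = 0.243) ran from 0.956 to 1.20 when a library was left out. This was the narrowest interval relative to its size among the 10, 0.711 to 1.45 at 95%.

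Ifngr2 (chromosome 16, 91547094 to 91564007, plus strand), which encodes the chain that brings in JAK2, stood at only 1.09 and 0.370 FPKM in CCR7hiCD137lo, against 1.51 and 1.44 FPKM in CCR7loCD137hi. These values exceeded those of only 5.4%, 0.8%, 5.9% and 3.8% of the genes tested, in the same order. The smallest whole numbers with the ratios of these values, after allowing for depth and within 0.05 of whole, were 42, 9, 33 and 17 fragments in the same order. With Poisson intervals of 95%, which cover counting error only, CCR7hiCD137lo replicates 1 and 2 spanned 0.784 to 1.47 and 0.169 to 0.702 FPKM, and CCR7loCD137hi replicates 1 and 2 spanned 1.04 to 2.13 and 0.837 to 2.30 FPKM. CCR7hiCD137lo replicate 1 therefore overlapped both CCR7loCD137hi libraries within counting error, whereas CCR7hiCD137lo replicate 2 lay below the intervals of all 3 other libraries. The log2 difference was 0.55 (SE 0.298, limma adjusted p = 0.718). With a pseudocount of 0.1 it was 1.08. The ratio of Ifngr1 to Ifngr2 was 30.4 and 107 in CCR7hiCD137lo and 50.8 and 54.4 in CCR7loCD137hi, so the populations overlapped in it (difference of the log2 ratio −0.117, exact permutation p = 1.0, two-sided).

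**Figure D2:**
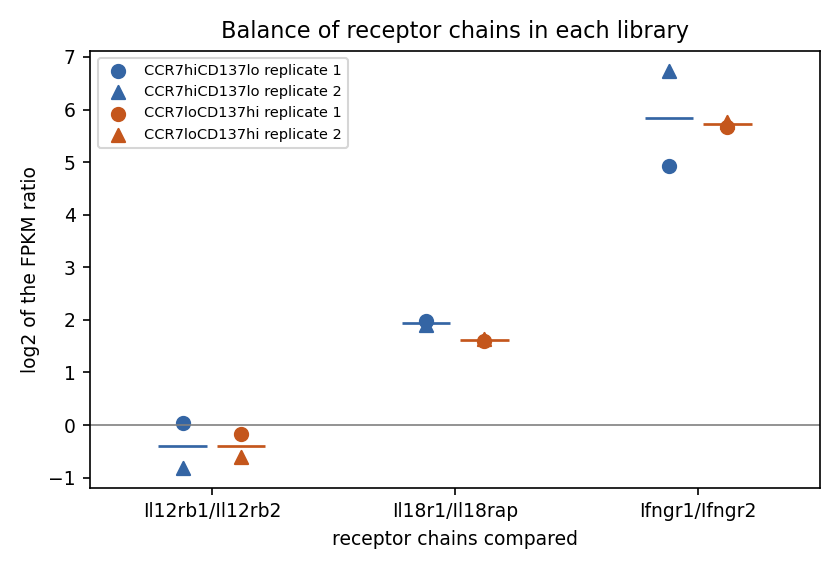
The log2 ratio of the FPKM values of the chains of each receptor, by library, with a bar at the mean of each population. The Ifngr1/Ifngr2 ratio lies between 4.93 and 6.74 in all libraries, the Il18r1/Il18rap ratio is lower in both CCR7loCD137hi libraries, and the Il12rb1/Il12rb2 ratio overlaps between the populations.

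The genes of the IL-12 receptor were both present in every library, and the populations overlapped for Il12rb2 but not for Il12rb1. Il12rb1 (chromosome 8, 70808449 to 70821423, plus strand), which encodes the chain shared with the IL-23 receptor, stood at 22.05 and 26.2 FPKM in CCR7hiCD137lo, against 40.7 and 34.7 FPKM in CCR7loCD137hi. The groups did not overlap, and the log2 difference was 0.62 (SE 0.159, limma adjusted p = 0.487), with 0.50 to 0.74 when a library was left out. Il12rb2 (chromosome 6, 67292018 to 67376137, minus strand), which encodes the chain that binds STAT4, stood at 21.5 and 46.2 FPKM in CCR7hiCD137lo, against 45.7 and 53.1 FPKM in CCR7loCD137hi. Here CCR7hiCD137lo replicate 1 was low and the other 3 libraries lay together, with CCR7hiCD137lo replicate 2 just above CCR7loCD137hi replicate 1. Its log2 difference of 0.63 (SE 0.379, limma adjusted p = 0.744) was 0.09 without CCR7hiCD137lo replicate 1 and was 1.16 without CCR7hiCD137lo replicate 2.

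Exons of Il12rb2 overlap those of Serbp1 on the opposite strand by 819 nt, and Serbp1 was at 107 and 88.8 FPKM in CCR7hiCD137lo, against 101 and 77.3 FPKM in CCR7loCD137hi. Use of strand in counting is not stated, and without it the reads of both genes at these bases cannot be told apart. The ratio of Il12rb1 to Il12rb2 was 1.03 and 0.568 in CCR7hiCD137lo and 0.890 and 0.654 in CCR7loCD137hi. The replicate numbers differed more in it than the populations did (exact permutation p = 1.0, two-sided).

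Downstream of the IL-12 receptor, the populations did not overlap for the kinase gene Tyk2 and overlapped for Stat4. Tyk2 (chromosome 9, 21104068 to 21131275, minus strand), which encodes the kinase on the chain shared with the IL-23 receptor, stood at 12.6 and 14.1 FPKM in CCR7hiCD137lo, against 15.3 and 17.2 FPKM in CCR7loCD137hi. The ratio of means was 1.22 and the log2 difference 0.26 (SE 0.143, limma adjusted p = 0.718). Its exons overlap an antisense gene, 1700084C06Rik, by 554 nt. Stat4 (chromosome 1, 52008244 to 52107184, plus strand) stood at 31.5 and 40.9 FPKM in CCR7hiCD137lo, against 29.3 and 47.7 FPKM in CCR7loCD137hi. Exons of Stat4 overlap those of Gm28177 on the same strand by 1033 nt. For Stat4, the libraries numbered 2 were higher in both populations, and the population means, 36.2 and 38.5 FPKM, were closer than the replicates. The log2 difference of 0.06 had a 95% interval of −0.69 to 0.81 (limma adjusted p = 0.974), so a change of less than about that size in either direction was not resolved, and without CCR7loCD137hi replicate 2 the value was −0.28.

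Tbx21 (chromosome 11, 97098007 to 97115331, minus strand), the gene of the factor that sets the Th1 programme, stood at 31.0 and 36.0 FPKM in CCR7hiCD137lo, against 41.1 and 30.2 FPKM in CCR7loCD137hi. The CCR7loCD137hi libraries lay on either side of both CCR7hiCD137lo libraries. The log2 difference was 0.08 with a 95% interval of −0.45 to 0.60 (limma adjusted p = 0.947), and it was −0.03 without CCR7hiCD137lo replicate 1 and −0.14 without CCR7loCD137hi replicate 1. Set against Tbx21 in the same library, Ifng was at 0.494 and 0.772 times its level in CCR7hiCD137lo and at 5.23 and 3.004 times its level in CCR7loCD137hi.

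The IL-18 receptor genes are neighbours on chromosome 1, on the same strand and 14507 nt apart. Il18r1 (40465552 to 40500854, plus strand), which encodes the ligand-binding chain, stood at 94.1 and 103 FPKM in CCR7hiCD137lo, against 80.5 and 77.6 FPKM in CCR7loCD137hi. It was the only one of the 10 with both CCR7loCD137hi libraries below both others, with a ratio of means of 0.802 and a log2 difference of −0.31 (SE 0.119, limma adjusted p = 0.613). Il18rap (40515362 to 40549297, plus strand), the accessory chain gene, stood at 23.7 and 27.7 FPKM in CCR7hiCD137lo, against 26.6 and 24.9 FPKM in CCR7loCD137hi. The CCR7loCD137hi libraries lay between the CCR7hiCD137lo libraries, and the log2 difference was 0.01 with a 95% interval of −0.37 to 0.38 (limma adjusted p = 0.993). The sign of that difference turned when a library was left out, with −0.10 without CCR7hiCD137lo replicate 1 and −0.04 without CCR7loCD137hi replicate 1. The ratio of Il18r1 to Il18rap was 3.97 and 3.72 in CCR7hiCD137lo and 3.02 and 3.11 in CCR7loCD137hi. The groups did not overlap, and the exact permutation p of 0.33 (two-sided) is the smallest that 2 against 2 libraries can give.

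**Figure D3:**
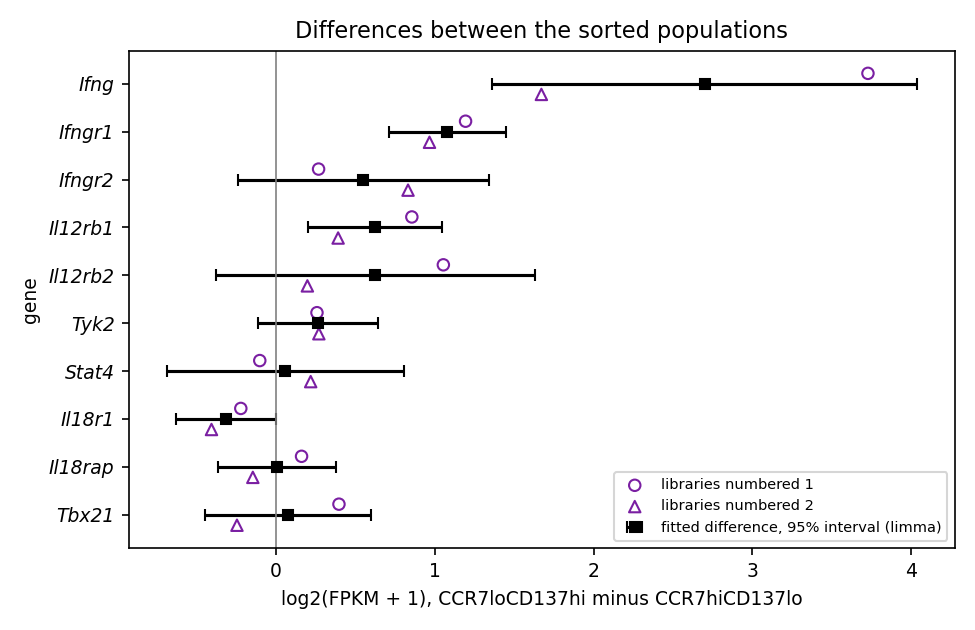
Difference in log2(FPKM + 1), CCR7loCD137hi minus CCR7hiCD137lo, for each gene, with the fitted value and its 95% interval from limma (squares and bars) and the difference between libraries of the same number (open circles and triangles). The intervals of Ifng, Ifngr1 and Il12rb1 lie above 0, and the differences within numbers fall on both sides of 0 for Stat4, Il18rap and Tbx21.

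Genes around these 10 were taken from 5 lists, and none of their members passed limma's test over all genes. Among 12 genes of receptor-proximal signalling, 0 were higher and 1 lower at an unadjusted p under 0.05, and the median difference was −0.06. The shares of all genes at that p were 4.64% higher and 3.49% lower. Jak2, whose product serves both the IL-12 and the interferon-gamma receptor, was the lower one, at 21.98 and 23.7 against 16.1 and 16.3 FPKM (log2 difference −0.47, SE 0.124, limma adjusted p = 0.501). It was therefore lower where Ifngr1 was higher, with no overlap of the groups for either gene. It was not among the genes set for naming and is given because it is a count of this list. Jak1 was at 61.5 and 65.8 against 56.2 and 60.8 FPKM, Myd88, the adaptor of the IL-18 receptor, at 48.9 and 44.4 against 49.7 and 36.5 FPKM, and the inhibitor gene Socs1 at 63.3 and 92.2 against 68.9 and 85.2 FPKM. Stat3 was at 34.6 and 38.6 against 40.7 and 40.4 FPKM, with both CCR7loCD137hi libraries above both others (limma adjusted p = 0.807).

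Of 18 interferon-gamma-induced genes, 16 were tested, and 3 of these were fitted higher and 13 lower in CCR7loCD137hi, with a median of −0.20. At an unadjusted p under 0.05 there were 3 higher and 2 lower, against 4.64% and 3.49% of all genes. Both CCR7loCD137hi libraries were below both others for 9 and above for 3, against 21.5% and 16.6% of all genes. The 3 higher were Cd274, which encodes PD-L1, at 4.90 and 5.89 FPKM in CCR7hiCD137lo, against 11.3 and 9.46 FPKM in CCR7loCD137hi, the transcription factor gene Irf8, at 19.9 and 28.98 against 36.2 and 38.3 FPKM, and the chemokine gene Cxcl10, at 0.378 and 0.171 against 2.87 and 1.06 FPKM. Cxcl10 entered the test through its level in CCR7loCD137hi, since its mean in CCR7hiCD137lo was 0.275 FPKM. The 2 lower were Ifi47 and Irgm1, the latter at 39.3 and 33.8 against 27.7 and 26.7 FPKM. All but Ifi47 were outside the rule for naming and were chosen after their values were seen. Ifi47, which encodes an interferon-inducible GTPase, was at 179 and 136 FPKM in CCR7hiCD137lo, against 97.0 and 61.6 FPKM in CCR7loCD137hi (limma adjusted p = 0.523). Igtp, another such GTPase gene, was at 351 and 388 against 318 and 286 FPKM, and Gbp4 at 163 and 155 against 143 and 126 FPKM. The immunoproteasome genes Psmb8 and Psmb9 were at 532 and 520 against 496 and 453 FPKM and at 301 and 322 against 247 and 262 FPKM. Ifi47 and these 4 genes were lower in both CCR7loCD137hi libraries.

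Of 20 other regulators of Ifng transcription, 17 were tested, with 12 fitted higher and 5 lower and a median of 0.40. At an unadjusted p under 0.05 there were 7 higher and 0 lower, against 4.64% and 3.49% of all genes. The list was not split by whether a gene raises or lowers Ifng transcription, so these counts do not tell which. Among the 7 were Gata3, at 6.44 and 5.96 FPKM in CCR7hiCD137lo, against 12.8 and 10.5 FPKM in CCR7loCD137hi, and Prdm1, at 0.430 and 2.23 against 6.03 and 12.9 FPKM. Bhlhe40, a factor that supports Ifng expression in T helper cells, was at 20.1 and 34.1 FPKM in CCR7hiCD137lo, against 69.5 and 96.4 FPKM in CCR7loCD137hi (log2 difference 1.61, SE 0.309, limma adjusted p = 0.374). Gadd45g, which activates a kinase cascade leading to p38 in Th1 cells, was at 50.4 and 84.9 against 132 and 116 FPKM. Runx3, a partner of T-bet, was at 45.1 and 50.4 against 51.8 and 58.0 FPKM, and Ets1 at 118 and 148 against 102 and 140 FPKM, with overlapping groups. Cbfb, at 70.3 and 56.3 against 56.1 and 44.2 FPKM, was lower in both CCR7loCD137hi libraries. So was the p38 gene Mapk14, at 41.4 and 33.7 against 29.6 and 22.8 FPKM. Over the list, both CCR7loCD137hi libraries were above both others for 9 genes and below for 3, against 16.6% and 21.5% of all genes.

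Among 14 T-bet-bound Th1 genes, 12 were tested, 11 were fitted higher and 1 lower, and the median was 1.53, with 7 higher and 1 lower at an unadjusted p under 0.05. Over all genes tested, 4.64% were higher and 3.49% lower at that p. Ccl3, Ccl4 and Ccl5 had means in CCR7hiCD137lo of 0.0413, 0.137 and 0.235 FPKM. They entered the test through their level in CCR7loCD137hi, which fixed the direction of their means. The median falls between Ccl4 (1.53) and Ccl3 (1.534), and Ccl4 was at 0 in CCR7loCD137hi replicate 2. Gzmb, the granzyme B gene, was at 18.2 and 123 FPKM in CCR7hiCD137lo, against 1486 and 1122 FPKM in CCR7loCD137hi (log2 difference 4.73, limma adjusted p = 0.374). Its log2 difference was 6.07 without CCR7hiCD137lo replicate 2, in a fit that leaves 1 library in that group. Nkg7, a cytotoxic granule gene, was at 50.6 and 66.8 FPKM in CCR7hiCD137lo, against 239 and 122 FPKM in CCR7loCD137hi, and Il2rb, an IL-2 receptor chain gene, at 332 and 381 against 512 and 484 FPKM. Cxcr3 was the lower one, at 48.5 and 56.5 against 29.0 and 25.5 FPKM (log2 difference −0.92, SE 0.147, limma adjusted p = 0.331).

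Of 12 other cytokine and receptor genes of the IL-12 and IL-18 families, Il12a, Il12b and Il27 were listed at 0 in every library, and 6 were tested, with a median of 0.41. At an unadjusted p under 0.05 there was 1 higher and 0 lower, against 4.64% and 3.49% of all genes. That gene, Il1rl1, encodes the IL-33 receptor, a relative of the IL-18 receptor, and it was at 0.486 and 0.415 FPKM in CCR7hiCD137lo, against 10.0 and 3.46 FPKM in CCR7loCD137hi (limma adjusted p = 0.405). Il1rl1 entered the test through its level in CCR7loCD137hi, since its mean in CCR7hiCD137lo was 0.451 FPKM. Like Ifng, Il1rl1 was highest in CCR7loCD137hi replicate 1, the library with the highest Foxp3. A link between the levels of these genes was not tested. Sigirr, a relative of these receptors, was at 13.8 and 21.2 against 23.9 and 38.4 FPKM.

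**Figure D4:**
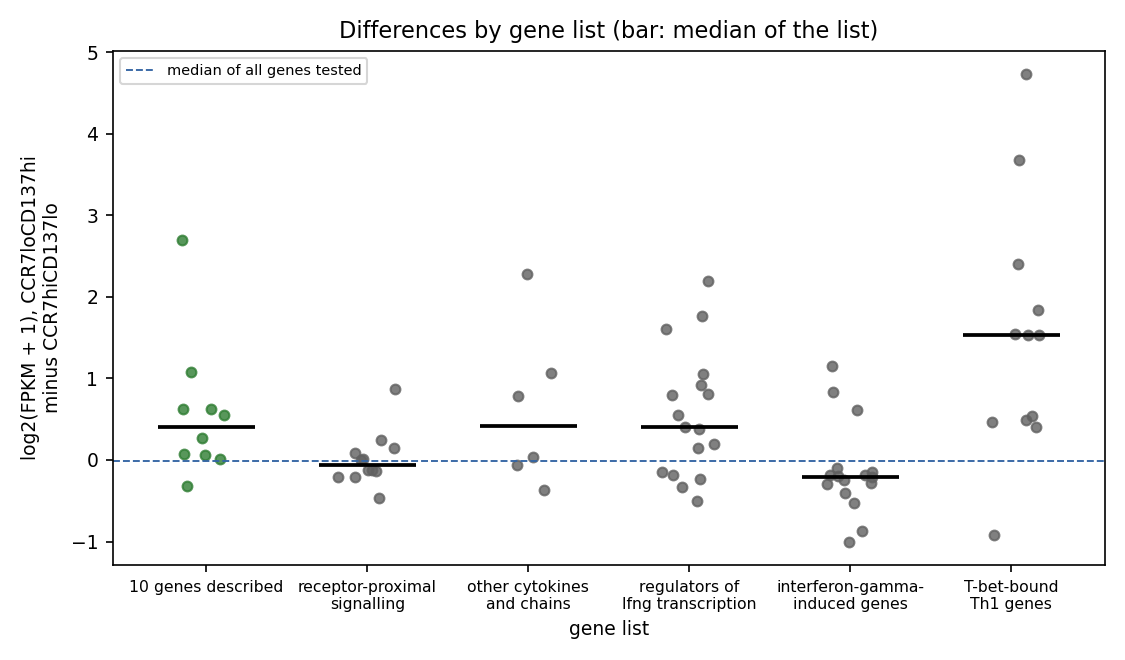
Difference in log2(FPKM + 1), CCR7loCD137hi minus CCR7hiCD137lo, for each tested gene of the 10 described and of the 5 surrounding lists, with a bar at the median of each list and a dashed line at the median of all genes tested. The medians are 1.53 for T-bet-bound Th1 genes, 0.41 for the 10 genes and −0.20 for interferon-gamma-induced genes. The median of the T-bet-bound genes falls between Ccl3 and Ccl4, which entered the test through their level in CCR7loCD137hi.

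Likeness to 4 of the genes was measured as the Euclidean distance between log2(FPKM + 1) profiles over the 4 libraries, each centred on its mean, among 7881 other genes with a mean of at least 5 FPKM. The nearest to Ifng were Ubd, which encodes a ubiquitin-like protein (distance 0.491), Spp1, which encodes osteopontin (0.589), and Cd74, the MHC class II invariant chain gene (0.721). Ubd stood at 0.726 and 1.57 FPKM in CCR7hiCD137lo, against 13.2 and 6.90 FPKM in CCR7loCD137hi. Spp1 was at 2.23 and 2.59 against 44.5 and 14.5 FPKM, and Cd74 at 0.920 and 1.13 against 23.3 and 5.15 FPKM. Each was under 5 FPKM in both CCR7hiCD137lo libraries and so entered the comparison through its level in CCR7loCD137hi. The nearest to Tbx21 were Mir682 (0.048), Manbal (0.048) and Tfe3 (0.059). The nearest to Il12rb2 were Zfp219 (0.064), Tnp2 (0.149) and Cul7 (0.159), each lowest in CCR7hiCD137lo replicate 1. The nearest to Il18r1 were Gprin3 (0.019), Pole (0.036) and Pbrm1 (0.04). With 4 libraries these distances only describe the profiles.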

How the data were processed

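Polyadenylated RNA of 4 libraries was measured; per the labels' protocols it was extracted with TRIzol and made into libraries with a TruSeq Stranded mRNA kit. The FPKM values were computed by the authors, deposited in 1 table per library, with the columns of a Cufflinks gene table per the file headers. Per the submitters' processing notes, which give no roles, the build was mm10 and the tools were Cufflinks 2.0.2, TopHat 1.3.2 and Bowtie 0.12.8. The sources used here do not give the annotation, the filters or the use of strand.

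Each table held 23746 entries for 23284 symbols, and where a symbol repeated (240 symbols) the entry with the highest mean was used. The labels gave each library's group and number. Genes with a mean of at least 1 FPKM entered limma 3.58.1 (R 4.3.3) as log2(FPKM + 1), with group as the only term, moderated variances with a trend, and Benjamini-Hochberg adjustment over 10496 genes, two-sided, with 2 residual and 2.54 prior degrees of freedom. The fit was tested on simulated data. Ratios of receptor chains were compared by an exact permutation test, which cannot give a two-sided p under 0.33. Relative depth came from genes under 0.3 FPKM, where 74.2% to 75.5% of ratios between libraries lay within 0.002 (natural log) of a ratio of whole fragments; absolute depth is unknown. Start coordinates were raised by 1 from those in the files, as 11547 of them lay 1 base before RefSeq's start and 694, Ifng among them, on it. The start printed for Ifng therefore lies 1 base past RefSeq's. Strand, type and overlaps came from GENCODE M21. Python 3.11.15, numpy 2.4.6, pandas 2.3.3, scipy 1.17.1 and matplotlib 3.10.9 were used.

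The 10 genes and the lists were chosen with earlier results of these data known. One pathway gene and one cell marker are not reported here and were left out of the counts, medians and sums of their lists. Names were taken from all 10 genes, the 6 most expressed genes of each list and the 3 nearest profiles of 4 genes. Jak2, Cd274, Irf8, Cxcl10, Irgm1, Gata3 and Prdm1 were named for counts, and Mapk14 after its values were seen. Alternatives covered the pseudocount, the filter, 2 scalings, the variance trend, a replicate block and each library left out.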

Additional observations from a re-analysis of the deposited data

How the results depend on the processing

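None of the 10 genes passed limma's test over all genes under any of the 11 alternatives, and at an unadjusted p under 0.05 there were 2 to 4 of them when a library was left out and 3 to 5 otherwise. Over all genes the calls went from 6 to 1 with no filter on low values, 2 with quantile normalization, 2 without a variance trend, and 12 to 30 with a library left out. The libraries that share a replicate number share only that number in the labels: their deviations from the group means correlated at 0.214 across genes. With the replicate block there were 42 calls over all genes and 5 of the 10 genes at an unadjusted p under 0.05, with the lowest adjusted p, 0.0636, for Ifngr1, and 3 list genes were called (Bhlhe40, Fasl and Prdm1). With a library left out 0 to 1 list genes were called, the 1 being Gzmb without CCR7hiCD137lo replicate 2. The median difference of the 10 genes ran from 0.14 to 0.456 with a library left out. The signs of Tbx21 (−0.139 to 0.29), Stat4 (−0.284 to 0.401) and Il18rap (−0.10 to 0.116) turned in such fits, each of which leaves 1 library in a group that is assumed to vary like the others: Tbx21 (−0.031), Stat4 (−0.124) and Il18rap without CCR7hiCD137lo replicate 1, Tbx21 and Il18rap (−0.038) without CCR7loCD137hi replicate 1, and Stat4 without CCR7loCD137hi replicate 2. The difference of the Ifngr1/Ifngr2 log2 ratio ran from −1.02 to 0.79 with a library left out. The signs of the other 7 genes stayed as given under all alternatives run; with the minimum mean of 5 FPKM Ifngr2 was not tested. The cause of these shifts was not tested beyond the fewer samples. For Ifngr2, 9 fragments was the smallest whole number that matched its value in CCR7hiCD137lo replicate 2.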
